A study of Bos taurus with 6 samples.

Results

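The mitochondrial protein import machinery was followed here at the level of messenger RNA in bovine metaphase II oocytes, eggs that had completed maturation in culture and were ready to be fertilized. Its members were chosen by gene symbol: every TOMM or TIMM symbol that goes on with a digit, and GRPEL1, PAM16, DNAJC19, SAMM50, MTX1, MTX2, CHCHD4 and GFER. This gave 32 of the 17325 genes listed in each library. The group of interest consists of 3 libraries labelled siMTFP1, described as a knockdown of MTFP1, an inner mitochondrial membrane protein that takes part in fission. It was set against 3 libraries labelled NC, the negative control. Bovine oocytes were the source of all 6 libraries. The dose and timing of the knockdown, the control sequence and the number of oocytes per library are not given in the sources used here. Nothing in the labels states that replicates were separate cultures or animals. Every SD of a group below is thus the spread between its 3 libraries and may be technical. Each SE is that of a difference between the groups, moderated by limma with the variance of all tested genes. It rests on the same libraries, so the same limit holds.

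Nearly all mitochondrial proteins are encoded in the nucleus, made in the cytosol and carried into the mitochondrion through its membranes. Precursors enter through the TOM complex of the outer membrane, whose receptors pass them to a channel. From there the TIM23 complex and its motor draw proteins with a presequence into the matrix, while the TIM22 complex inserts carrier proteins into the inner membrane. Small TIM chaperones ferry hydrophobic precursors across the space between the membranes, the MIA pathway traps cysteine-rich proteins there by oxidation, and the SAM complex builds barrel proteins into the outer membrane. An oocyte holds a large store of mitochondria, which the early embryo inherits.

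The targeted transcript did not separate the groups. MTFP1 had 0.43, 0.58 and 1.15 FPKM in the libraries labelled siMTFP1 1, 2 and 3, against 0.53, 0.55 and 0.05 FPKM in those labelled NC 1, 2 and 3. FPKM is fragments scaled to transcript length and to the library's mapped fragments, which is meant to make genes of different length comparable. How well it does so for these genes was not tested. On the log2(FPKM + 1) scale the difference was 0.32 (exact two-sided permutation test, p = 0.4, where 3 against 3 allow no p below 0.1). The transcript was not lower where a knockdown is labelled, so groups are named by their labels and each direction below is that of the labels. With both libraries numbered 3 left out the difference was -0.035. At a mean of 0.548 FPKM over the 6 libraries, MTFP1 lay too near 0 for these values to judge a knockdown.

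The depth of the libraries is unknown, since FPKM values hold no read totals. Between 15120 and 15533 genes lay above 0 per library, and log2 levels of 2 libraries correlated across genes at 0.971 to 0.986, genes not being independent replicates. The 15 oocyte marker genes found in the files summed to 33520 to 34576 FPKM in the libraries labelled siMTFP1 and 34494 to 36054 FPKM in those labelled NC. The 25 markers of cumulus and granulosa cells, the somatic cells around the oocyte, summed to 226 to 1191 FPKM in the siMTFP1 libraries and 219 to 410 FPKM in the NC libraries. The library labelled siMTFP1 2 was the highest, at 1191 FPKM, of which TIMP1 made up 955 FPKM. None of these markers was at 0 in all 6 libraries, and 15 of the 25 averaged at least 1 FPKM. After TIMP1 the highest averages were those of STAR, HAS2 and IGFBP2, with 65.7, 41.5 and 30.9 FPKM. The other 10 averaged below 1 FPKM, among them the hormone receptors FSHR and LHCGR and the granulosa genes AMH and FOXL2 below 0.1 FPKM. In such bulk libraries fewer cells of a type and less RNA per cell cannot be told apart.

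The import genes averaged between 0.438 and 4639 FPKM over the 6 libraries, and a pair of small TOM subunits stood far above all others. TOMM6 averaged 4674 ± 744 FPKM in the libraries labelled siMTFP1 and 4603 ± 284 FPKM in those labelled NC (SD, n = 3 each). TOMM7 averaged 4306 ± 1119 FPKM in the siMTFP1 libraries and 4816 ± 390 FPKM in the NC libraries. By their mean over 6 libraries they ranked 17 and 18 among all 17325 genes, and they did not differ from each other beyond their spread. Together TOMM6 and TOMM7 made up 80.4% to 84.9% of the summed FPKM of all 32 genes in the siMTFP1 libraries and 83.1% to 85.6% in the NC libraries. The 32 genes as a whole took 1.17% to 1.44% of all FPKM in the siMTFP1 libraries and 1.29% to 1.38% in the NC libraries.

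GRPEL1, the nucleotide exchange factor of the import motor, came next with 793 FPKM over the 6 libraries. It was followed by the small chaperone TIMM8A with 288 FPKM and the receptor TOMM20 with 96.2 FPKM. Each of these steps down the order was larger than the spread of either gene over the libraries. From TIMM21, at 67.9 FPKM, to MTX2, at 26.8 FPKM, 13 genes followed each other without a step beyond the spread. Further steps that exceeded it lay between MTX2 and GFER, GFER and TOMM22, TOMM34 and TIMM17A, TIMM29 and TIMM22, TOMM40 and SAMM50, and MTX1 and TOMM40L. In all 21 of 31 neighbouring pairs did not differ beyond their spread. The order was alike in every library, with a lowest rank correlation of 0.96 between any 2 libraries over the 32 genes, which are not independent.

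The channel of the outer membrane was among the lowest of the set. TOMM40, the barrel through which precursors pass, averaged 3.26 ± 0.431 FPKM in the siMTFP1 libraries and 2.56 ± 0.682 FPKM in the NC libraries. TOMM7 lay above TOMM40 by a factor of 1016 to 1559 in the siMTFP1 libraries and 1452 to 2843 in the NC libraries, a pair chosen after the levels were seen. The inner membrane channel of the presequence route, TIMM23, averaged 44.6 ± 2.34 FPKM in the siMTFP1 libraries and 47.7 ± 5.43 FPKM in the NC libraries. That of the carrier route, TIMM22, averaged 3.98 ± 1.39 FPKM in the siMTFP1 libraries and 2.56 ± 0.822 FPKM in the NC libraries. TOMM40L and TOMM20L, relatives of the channel and of a receptor, were the lowest of all. TOMM40L had 1.21, 0.37 and 0.66 FPKM in siMTFP1 1, 2 and 3, against 0.53, 0.42 and 0.42 FPKM in NC 1, 2 and 3. TOMM20L had 0.17, 0.34 and 0.18 FPKM in the siMTFP1 libraries, against 0.71, 1.04 and 0.19 FPKM in the NC libraries. The groups overlapped in both.

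**Figure D1:**
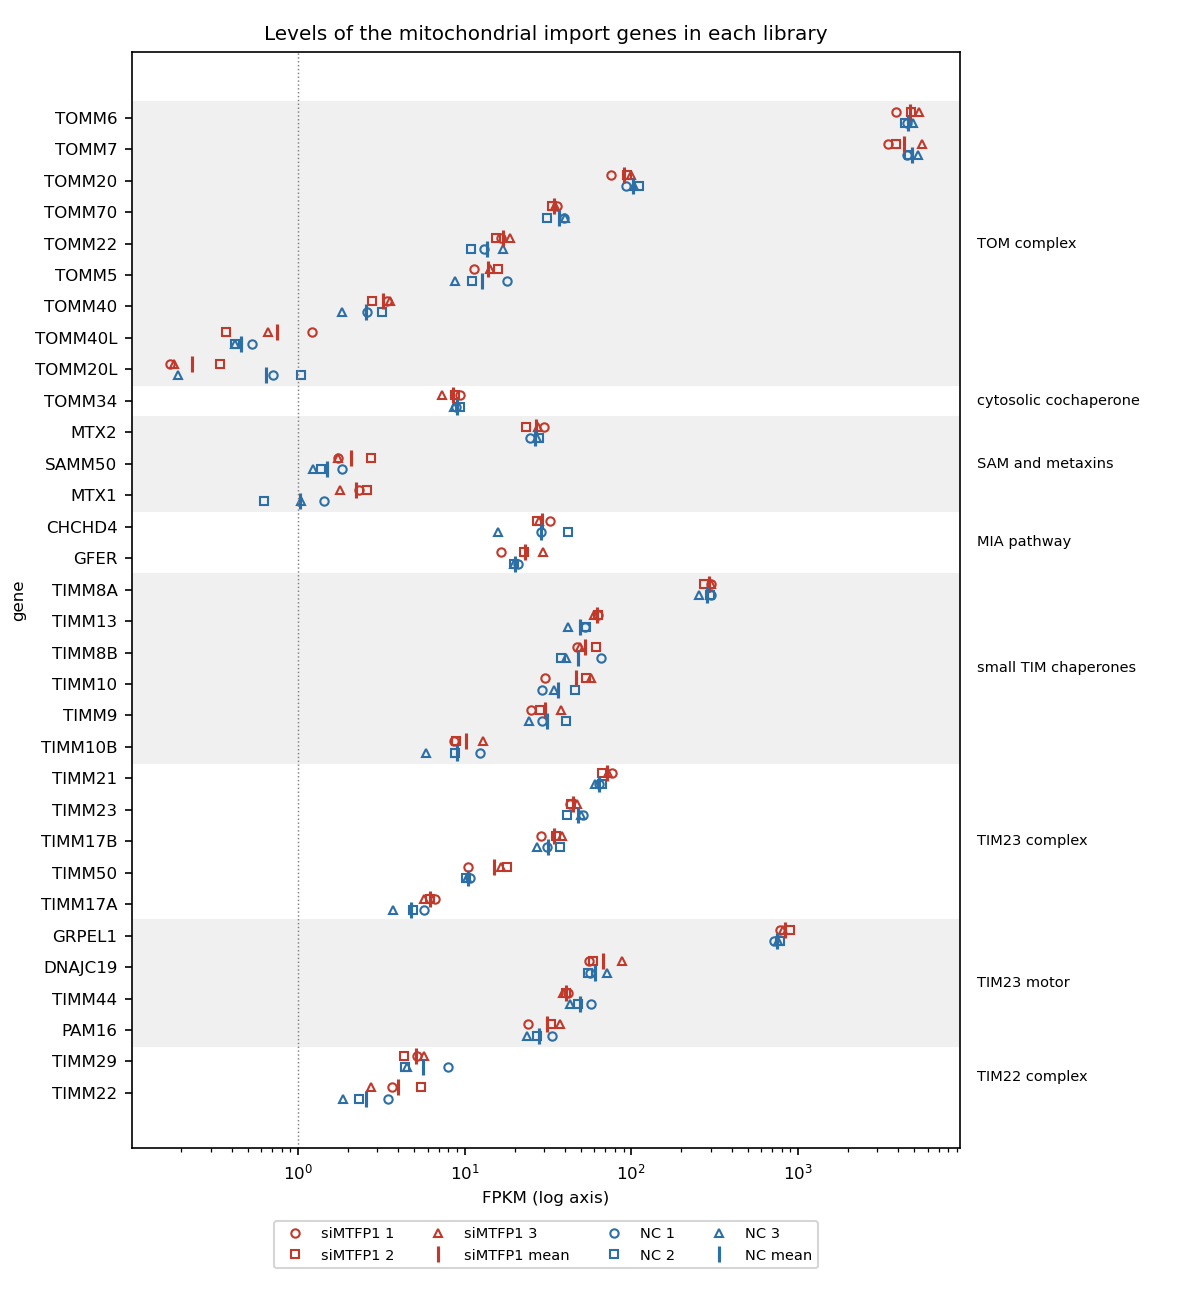
FPKM of each import gene in each library on a log axis, grouped by complex, with open symbols for libraries and bars for group means (siMTFP1 in red above NC in blue); the dotted line marks 1 FPKM. TOMM6 and TOMM7 sit between 3483 and 5580 FPKM in every library, while TOMM40L and TOMM20L average below 1 FPKM.

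No import gene passed the test between the groups. The comparison used limma on log2(FPKM + 1) over the 9730 genes with a mean of at least 1 FPKM, which left 30 of the 32 import genes. All 30 had a mean of at least 1 FPKM in both groups, and the untested ones were TOMM40L and TOMM20L. Past a Benjamini-Hochberg adjusted p of 0.05 there were 0 of the 30, against 0% of all genes tested. At an unadjusted p under 0.05 there were 2, MTX1 and TIMM13, both with a higher mean in the siMTFP1 libraries. That is 6.67% of the import genes, where 6.53% of all tested genes reached it (3.86% with a higher and 2.66% with a lower mean in the siMTFP1 libraries), so the share was at the background. MTX1 stayed under this p in each alternative that kept the gene. TIMM13 did not with FPKM rescaled to equal sums or with the replicate number as a block. Nor did it with the mean of cumulus and granulosa markers as a covariate, or with any library but NC 2 left out.

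Groups did not overlap in 4 of the 30 genes, or 13.3%, beside 11% of all tested genes. Every siMTFP1 library lay above every NC library for MTX1, TIMM13 and GRPEL1 (10%, against 5.97% of all genes). The reverse held for TIMM44 (3.33%, against 5.05% of all genes).

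More import genes had a higher than a lower mean, and the libraries numbered 3 lay farthest apart for them. The mean was higher in the libraries labelled siMTFP1 for 22 of the 30 genes and lower for 8, or 73.3% higher beside 54.2% of all tested genes. The median log2 difference was 0.14 over the import genes and 0.022 over all tested genes. Among the 6 libraries siMTFP1 3 was the highest for 10 of the 30 genes, and NC 3 was the lowest for 13. On average the import genes deviated from their own mean by 0.15 in siMTFP1 3 and -0.18 in NC 3 on the log2 scale. Over all tested genes that deviation was 0.0077 in siMTFP1 3 and -0.090 in NC 3.

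Without siMTFP1 3, 19 genes had a higher mean and the median was 0.017, beside 0.036 over all tested genes. Leaving out NC 3 gave 17 genes and a median of 0.047, beside -0.0093 over all tested genes. With both left out, 14 genes had a higher mean and the median was -0.023, beside 0.0042 over all tested genes. These libraries were picked after seeing that they deviated most in the import genes, so a smaller count and median had to follow. Without siMTFP1 1, on the other hand, the median was 0.23, beside 0.0061 over all tested genes. Cumulus and granulosa markers summed to 249 FPKM in siMTFP1 3 and 330 FPKM in NC 3, both within the range of the other libraries. Such a sum can hide single markers. CYP11A1 was highest in siMTFP1 3, at 13.43 FPKM, and TNFAIP6 in NC 3, at 17.14 FPKM. STAR, HAS2 and IGFBP2, on the other hand, were lowest in NC 3, at 54.52, 33.79 and 22.24 FPKM. With the mean of those markers as a covariate, 21 genes had a higher value in the siMTFP1 libraries. The median was then 0.098, beside 0.018 over all tested genes.

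**Figure D2:**
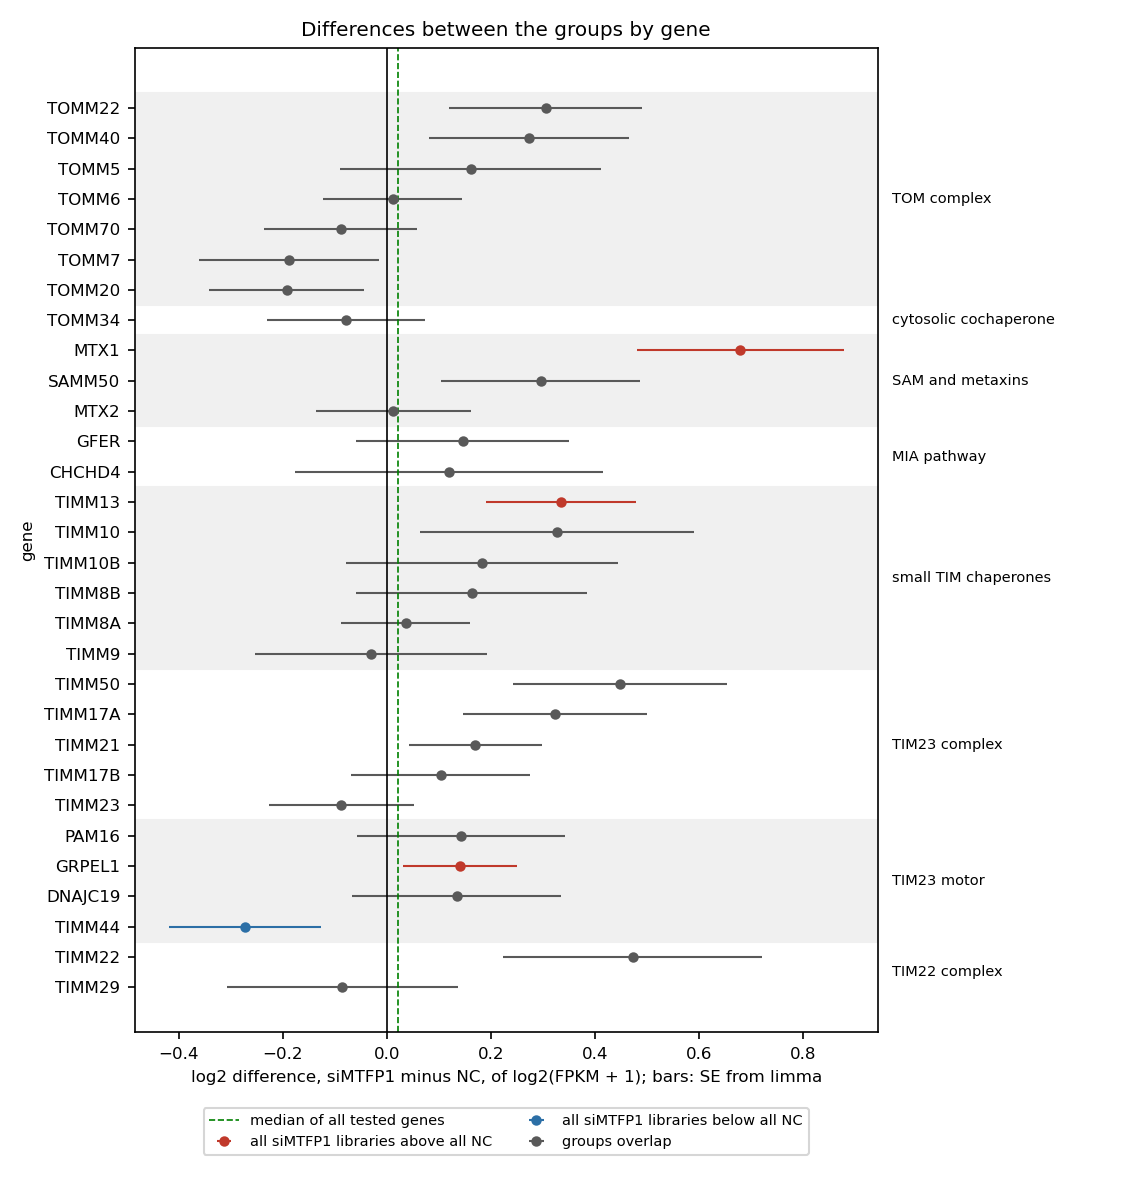
Log2 difference (siMTFP1 minus NC, on log2(FPKM + 1)) of the 30 tested import genes by complex, with SE bars from limma; colour marks genes whose groups do not overlap, and the dashed line is the median of all tested genes, 0.022. MTX1 lies farthest right at 0.68 and TIMM44 farthest left at -0.27.

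**Figure D3:**
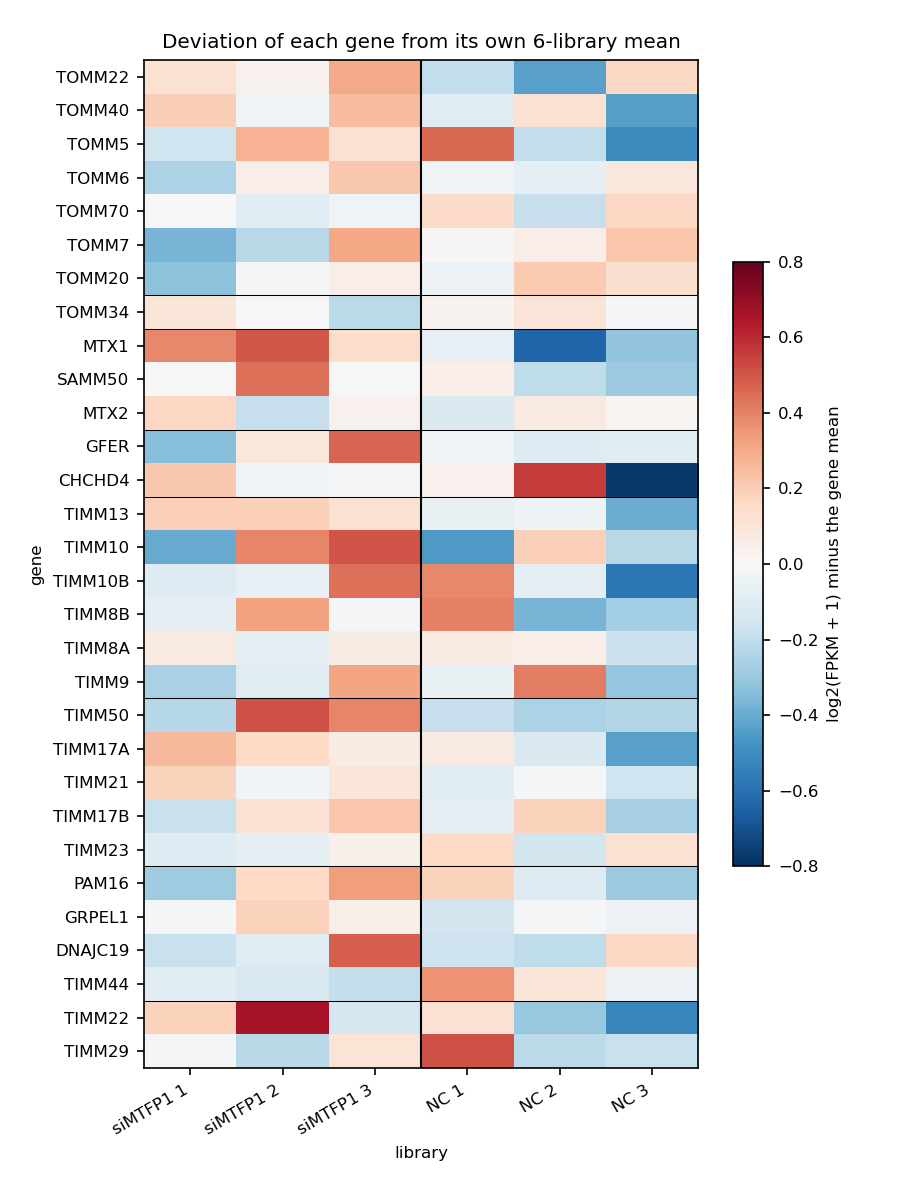
Deviation of each tested import gene (rows) from its own mean over the 6 libraries (columns, siMTFP1 left of NC), in log2(FPKM + 1), red above and blue below. The column of siMTFP1 3 is mostly red, with 24 of 30 genes above their own mean, and that of NC 3 is mostly blue, with 13 genes at their lowest.

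In the TOM complex, 4 of 7 tested genes had a higher mean and 3 a lower mean in the siMTFP1 libraries, with a median log2 difference of 0.011. The largest positive one belonged to TOMM22, the central receptor that holds the complex together. It had 16.46, 15.44 and 18.85 FPKM in siMTFP1 1, 2 and 3, against 13.04, 10.91 and 17.06 FPKM in NC 1, 2 and 3. NC 3 exceeded the 2 lower siMTFP1 libraries, so the groups overlapped, and the log2 difference was 0.31 (SE 0.19, limma adjusted p = 0.848).

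The channel gene TOMM40 had 3.43, 2.77 and 3.58 FPKM in siMTFP1 1, 2 and 3, against 2.61, 3.21 and 1.85 FPKM in NC 1, 2 and 3. That gave a log2 difference of 0.27 (SE 0.19) and a limma adjusted p of 0.878, and NC 2 lay inside the range of the siMTFP1 libraries. TOMM5, a small subunit next to the channel, averaged 13.8 ± 2.24 FPKM in the siMTFP1 libraries and 12.7 ± 4.83 FPKM in the NC libraries (SD, n = 3 each). NC 1, with 18.09 FPKM, and NC 3, with 8.80 FPKM, were its highest and lowest libraries.

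For the receptors TOMM20 and TOMM70 and for TOMM7 the mean was lower in the siMTFP1 libraries, and for TOMM6 it was close to equal. TOMM20, the receptor for presequences, had 75.97, 94.54 and 99.34 FPKM in siMTFP1 1, 2 and 3, against 92.54, 110.63 and 104.46 FPKM in NC 1, 2 and 3. The log2 difference was -0.19 (SE 0.15, limma adjusted p = 0.884), and NC 1 lay below 2 of the siMTFP1 libraries. TOMM70, the receptor that takes carrier precursors from cytosolic chaperones, averaged 34.6 ± 1.17 FPKM in the siMTFP1 libraries and 37.0 ± 5.01 FPKM in the NC libraries. TOMM7 had 3483, 3855 and 5580 FPKM in siMTFP1 1, 2 and 3, against 4526, 4662 and 5259 FPKM in NC 1, 2 and 3. Both its lowest and its highest library were thus labelled siMTFP1, and the difference was -0.19 on the log2 scale, with an SE of 0.17 (limma adjusted p = 0.899).

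TOMM6 had 3879, 4788 and 5354 FPKM in siMTFP1 1, 2 and 3, against 4507, 4379 and 4923 FPKM in NC 1, 2 and 3. Again siMTFP1 1 was the lowest and siMTFP1 3 the highest, as for TOMM7. The log2 difference of TOMM6 was 0.011 (SE 0.13), and turned to -0.026 under median-ratio scaling. TOMM34, a cytosolic cochaperone of HSP70 and HSP90 that carries the TOMM name without being part of the complex, averaged 8.51 ± 1.05 FPKM in the siMTFP1 libraries and 9.00 ± 0.396 FPKM in the NC libraries.

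Of the genes for assembly in the outer membrane, all 3 had a higher mean in the siMTFP1 libraries, and MTX1 had the largest difference and the smallest p of the whole set. Metaxin 1, which MTX1 encodes, is a partner of the SAM complex. MTX1 had 2.31, 2.58 and 1.80 FPKM in siMTFP1 1, 2 and 3, against 1.43, 0.63 and 1.04 FPKM in NC 1, 2 and 3. All siMTFP1 libraries lay above all NC libraries at this low level. The log2 difference was 0.68 (SE 0.20), with an unadjusted limma p of 0.00828 and an adjusted p of 0.644. Over the alternatives its adjusted p ran from 0.260 with array weights to 1.00.

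SAMM50, the core that inserts barrel proteins, had 1.74, 2.73 and 1.75 FPKM in siMTFP1 1, 2 and 3, against 1.85, 1.38 and 1.24 FPKM in NC 1, 2 and 3. The highest library was siMTFP1 2, and NC 1 lay above siMTFP1 1 and siMTFP1 3 (log2 difference 0.30, SE 0.19, limma adjusted p = 0.864). Without siMTFP1 2 the log2 difference was 0.15. MTX2, the second metaxin, averaged 27.0 ± 3.34 FPKM in the siMTFP1 libraries and 26.6 ± 1.83 FPKM in the NC libraries. Its log2 difference of 0.013 turned to -0.023 under median-ratio scaling and to -0.018 under quantile normalization.

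In the MIA pathway neither gene separated the groups. CHCHD4, the oxidoreductase that introduces disulfide bonds into incoming proteins, had 32.55, 27.38 and 27.80 FPKM in siMTFP1 1, 2 and 3, against 28.63, 41.61 and 15.95 FPKM in NC 1, 2 and 3. The siMTFP1 libraries lay within the range of the NC libraries, of which NC 2 was the highest and NC 3 the lowest. Its log2 difference of 0.12 became -0.24 without NC 3. GFER, the sulfhydryl oxidase that returns CHCHD4 to its active state, had 16.54, 22.71 and 29.71 FPKM in siMTFP1 1, 2 and 3, against 20.81, 19.69 and 19.91 FPKM in NC 1, 2 and 3. Here the NC libraries were close together and lay inside the wide range of the siMTFP1 libraries (log2 difference 0.15, limma adjusted p = 0.942).

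Among the small TIM chaperones, 5 of 6 had a higher mean in the siMTFP1 libraries, with a median log2 difference of 0.17. TIMM13, which pairs with TIMM8A to carry precursors across the intermembrane space, had 62.88, 63.00 and 59.83 FPKM in siMTFP1 1, 2 and 3. In NC 1, 2 and 3 it had 52.65, 53.38 and 41.49 FPKM. The siMTFP1 libraries were close together and all above the NC libraries, of which NC 3 was the lowest. The log2 difference was 0.33 (SE 0.14), with an unadjusted limma p of 0.0459 and an adjusted p of 0.764.

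TIMM8A itself, the most abundant of these chaperones, averaged 291 ± 17.0 FPKM in the siMTFP1 libraries and 285 ± 26.2 FPKM in the NC libraries. Its log2 difference was 0.036, and -0.0010 under median-ratio scaling. TIMM8B, its relative, averaged 52.6 ± 8.05 FPKM in the siMTFP1 libraries and 48.0 ± 15.3 FPKM in the NC libraries. Neither TIMM8 gene separated the groups, and the span of TIMM8B within the NC libraries reached from 37.84 to 65.57 FPKM.

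The carrier chaperones TIMM9 and TIMM10 form a ring together, and neither separated the groups. TIMM10 had 30.22, 53.19 and 57.39 FPKM in siMTFP1 1, 2 and 3, against 29.11, 46.03 and 34.34 FPKM in NC 1, 2 and 3. The log2 difference was 0.33 with an SE of 0.26 (limma adjusted p = 0.892), since siMTFP1 1 lay at the level of NC 1. TIMM9 had 25.18, 28.31 and 37.97 FPKM in siMTFP1 1, 2 and 3, against 29.22, 40.65 and 24.32 FPKM in NC 1, 2 and 3. Its groups covered nearly the same range, and the log2 difference was -0.031 (SE 0.22). TIMM10B, which docks the ring on the TIM22 complex, averaged 10.1 ± 2.44 FPKM in the siMTFP1 libraries and 9.03 ± 3.27 FPKM in the NC libraries.

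The TIM23 complex had a higher mean in the siMTFP1 libraries for 4 of 5 genes, with a median log2 difference of 0.17. TIMM50, the receptor that takes precursors from the outer membrane, led this group. It had 10.44, 18.06 and 16.54 FPKM in siMTFP1 1, 2 and 3, against 10.80, 10.22 and 10.38 FPKM in NC 1, 2 and 3. Only 2 siMTFP1 libraries lay above the narrow range of the NC libraries, while siMTFP1 1 lay within it. The log2 difference was 0.45 (SE 0.21, limma adjusted p = 0.766).

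TIMM17A and TIMM17B are alternative forms of the subunit that pairs with the channel. TIMM17A had 6.68, 6.16 and 5.68 FPKM in siMTFP1 1, 2 and 3, against 5.72, 4.90 and 3.73 FPKM in NC 1, 2 and 3. The groups touched only between siMTFP1 3 and NC 1, and the log2 difference was 0.32 (SE 0.18, limma adjusted p = 0.828). TIMM17B averaged 34.2 ± 4.89 FPKM in the siMTFP1 libraries and 31.8 ± 5.15 FPKM in the NC libraries. TIMM21, which links the complex to the TOM channel and to the respiratory chain, averaged 72.0 ± 5.13 FPKM in the siMTFP1 libraries and 63.8 ± 3.30 FPKM in the NC libraries. For TIMM21 the overlap was confined to siMTFP1 2, with 66.61 FPKM, and NC 2, with 67.12 FPKM. The channel gene TIMM23 had the 1 negative difference of the complex, -0.088 (SE 0.14).

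Of the 4 genes of the import motor, GRPEL1 and TIMM44 had groups that did not overlap, with differences of opposite sign. Groups did not overlap in 11% of all tested genes, and 4 motor genes are too few to set against that share. GRPEL1, which releases ADP from the mitochondrial HSP70, had 784, 898 and 812 FPKM in siMTFP1 1, 2 and 3, against 714, 783 and 764 FPKM in NC 1, 2 and 3. The lowest siMTFP1 library exceeded the highest NC library by a narrow margin, with 783.81 FPKM in siMTFP1 1 and 782.66 FPKM in NC 2. The log2 difference of GRPEL1 was 0.14 (SE 0.11, limma adjusted p = 0.889).

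TIMM44, the scaffold that tethers HSP70 to the channel, had 41.84, 40.60 and 38.95 FPKM in siMTFP1 1, 2 and 3, against 57.45, 47.65 and 43.15 FPKM in NC 1, 2 and 3. The siMTFP1 libraries were all lower and close together, while the NC libraries spread widely. The log2 difference was -0.27 (SE 0.15, limma adjusted p = 0.818). It stayed negative in all 19 alternatives, from -0.36 to -0.16. Most of these could not turn it. With groups that do not overlap, leaving out libraries, another pseudocount or array weights keep the sign. Filters, the replicate block and robust eBayes left the difference itself unchanged. The J-protein DNAJC19, which stimulates the HSP70, averaged 67.8 ± 18.0 FPKM in the siMTFP1 libraries and 60.8 ± 9.02 FPKM in the NC libraries, with its highest value, 88.47 FPKM, in siMTFP1 3. PAM16, the J-like regulator of that step, averaged 31.4 ± 6.78 FPKM in the siMTFP1 libraries and 28.1 ± 4.79 FPKM in the NC libraries.

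In the TIM22 complex the channel and its companion had differences of opposite sign. TIMM22 had 3.68, 5.50 and 2.76 FPKM in siMTFP1 1, 2 and 3, against 3.47, 2.34 and 1.87 FPKM in NC 1, 2 and 3. NC 1 lay above siMTFP1 3, and the log2 difference was 0.47 (SE 0.25, limma adjusted p = 0.815). TIMM29, a subunit of the complex in animals, averaged 5.09 ± 0.693 FPKM in the siMTFP1 libraries and 5.61 ± 1.98 FPKM in the NC libraries. With NC 1 left out, its log2 difference of -0.085 became 0.15.

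The outer membrane translocase was then set against the inner membrane translocases, with 7 tested TOM genes on one side and 11 tested genes of TIM23, its motor and TIM22 on the other. The mean log2 level of the TOM genes was 6.44, 6.55 and 6.72 in siMTFP1 1, 2 and 3, against 6.59, 6.48 and 6.53 in NC 1, 2 and 3. For the inner membrane genes it was 4.86, 5.01 and 5.03 in siMTFP1 1, 2 and 3, against 4.97, 4.80 and 4.73 in NC 1, 2 and 3. Both sets overlapped between the groups, with siMTFP1 3 highest in each. The higher level of the TOM genes came from TOMM6 and TOMM7. Without these, the other 5 tested TOM genes averaged 4.27, 4.34 and 4.45 in siMTFP1 1, 2 and 3. In NC 1, 2 and 3 they averaged 4.36, 4.21 and 4.21, so they lay below the inner membrane genes in every library.

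Outer minus inner, the log2 level averaged 1.60 ± 0.0809 in the siMTFP1 libraries and 1.70 ± 0.0924 in the NC libraries (SD, n = 3 each). The difference between the groups, -0.095, was about as large as the spread within either group, and the libraries overlapped between 1.58, 1.54 and 1.69 in siMTFP1 1, 2 and 3 and 1.62, 1.68 and 1.80 in NC 1, 2 and 3. It is a score over chosen genes and was given no test. The mean log2 difference was 0.040 over the outer genes, 0.092 over the 5 of them other than TOMM6 and TOMM7, and 0.14 over the inner ones. Outer minus inner, it was -0.045 without NC 3, -0.062 without siMTFP1 2 and -0.055 with quantile normalization. With every TOMM symbol set against every TIMM symbol the difference was -0.12. With the SAM genes and metaxins added outside and the small TIM chaperones added inside it was -0.020.

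**Figure D4:**
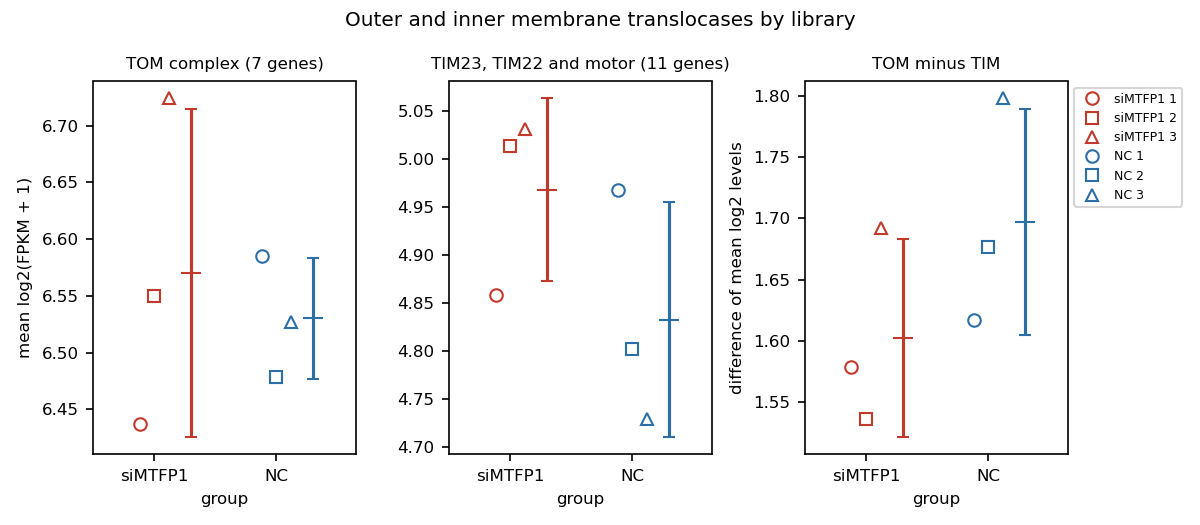
Mean log2(FPKM + 1) of 7 TOM genes, of 11 inner membrane translocase and motor genes, and their difference, per library (open symbols, siMTFP1 left of NC), with group mean and SD beside them. The groups overlap in each panel, and TOM minus TIM averages 1.60 in siMTFP1 and 1.70 in NC. The TOM mean includes TOMM6 and TOMM7, without which it would lie below the inner mean in every library. The axes do not start at 0.

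Ratios between genes that work together or stand in for each other do not depend on how a library was scaled. Of 8 such pairs, 1 had groups that did not overlap, beside 11% of all tested genes by their own levels, and it contains MTX1, whose own level did not overlap either. MTX1 relative to MTX2 had an FPKM ratio of 0.0768, 0.110 and 0.0657 in siMTFP1 1, 2 and 3, against 0.0582, 0.0224 and 0.0383 in NC 1, 2 and 3. All siMTFP1 libraries were higher, with a log2 ratio of -3.60 ± 0.382 in the siMTFP1 libraries and -4.76 ± 0.690 in the NC libraries (SD, n = 3 each). The MTX1 values that drive it are near 1 FPKM, where the depth behind them is unknown.

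The other seven pairs overlapped between the groups. TIMM17B was the prevailing TIMM17 form in every library, with TIMM17A at 0.148 to 0.232 of its level in the siMTFP1 libraries and 0.131 to 0.184 in the NC libraries. TIMM8A exceeded TIMM8B by a factor of 4.40 to 6.44 in the siMTFP1 libraries and 4.59 to 7.89 in the NC libraries. TIMM9 relative to TIMM10 was 0.532 to 0.833 in the siMTFP1 libraries and 0.708 to 1.00 in the NC libraries. In that pair 2 of the siMTFP1 libraries lay below all NC libraries, and the mean log2 ratios differed by -0.37.

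The J-protein pair, PAM16 relative to DNAJC19, had ratios of 0.421 to 0.556 in the siMTFP1 libraries and 0.335 to 0.591 in the NC libraries. CHCHD4 relative to GFER had ratios of 0.936 to 1.97 in the siMTFP1 libraries and 0.801 to 2.11 in the NC libraries. Of the receptors, TOMM20 exceeded TOMM70 by a factor of 2.13 to 2.86 in the siMTFP1 libraries and 2.33 to 3.54 in the NC libraries. TOMM40 exceeded TOMM40L by a factor of 2.83 to 7.49 in the siMTFP1 libraries and 4.40 to 7.64 in the NC libraries. In each of these pairs 1 gene of the pair prevailed in all 6 libraries, with the exception of CHCHD4 and GFER, whose order changed in the libraries numbered 3.

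**Figure D5:**
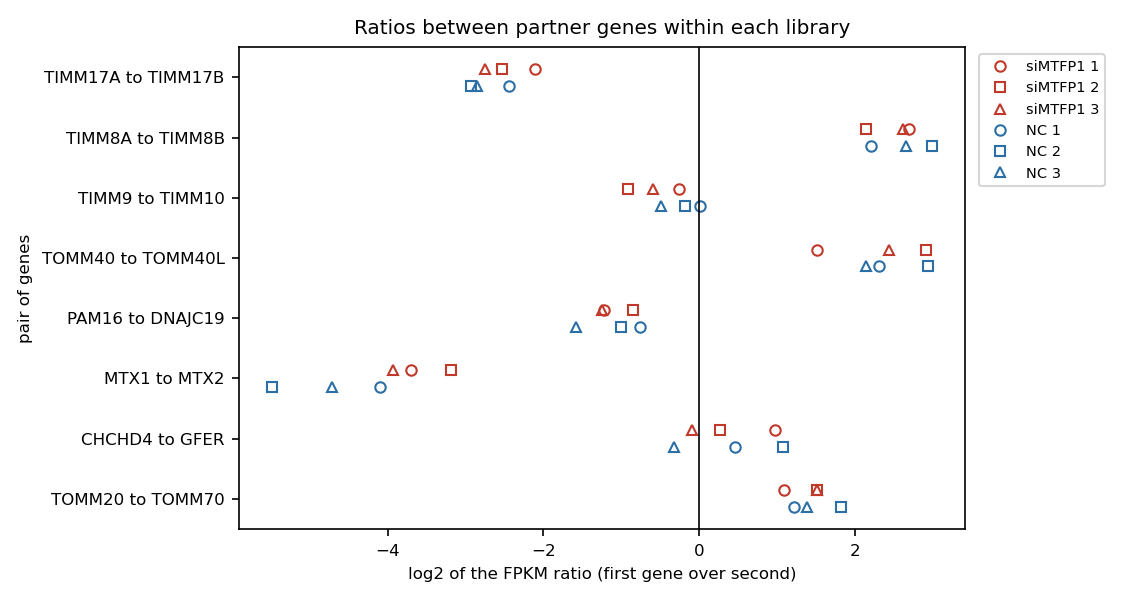
Log2 of the FPKM ratio of 8 gene pairs in each library (siMTFP1 in red above NC in blue). The groups separate for MTX1 to MTX2, with means of -3.60 in siMTFP1 and -4.76 in NC, and overlap for the other seven pairs.

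The wider pathway was described from a list of 46 genes for chaperones, presequence peptidases, insertases and other factors of import and of the inner membrane, 45 of which were found and 41 tested. In the siMTFP1 libraries the mean was higher for 25 of the 41 and lower for 16, where 54.2% of all tested genes had a higher mean. The median log2 difference was 0.057, beside 0.022 over all tested genes. By limma 0 of the 41 passed adjusted over all genes and 0 reached an unadjusted p under 0.05, where 6.53% of all genes did. Groups did not overlap in 2 of the 41, PITRM1 and IMMP1L, beside 11% of all tested genes. The 3 genes with the smallest p and a higher mean were MTCH1, PITRM1 and HSPE1. MTCH1, an outer membrane protein of the carrier family, averaged 5.17 ± 1.52 FPKM in the siMTFP1 libraries and 3.40 ± 0.701 FPKM in the NC libraries (SD, n = 3 each). PITRM1, the matrix protease that degrades cleaved presequences, averaged 3.83 ± 1.04 FPKM in the siMTFP1 libraries and 2.72 ± 0.176 FPKM in the NC libraries, without overlap. HSPE1, the matrix cochaperonin, averaged 538 ± 80.1 FPKM in the siMTFP1 libraries and 467 ± 9.21 FPKM in the NC libraries.

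With a lower mean, the 3 smallest p belonged to IMMP1L, MTCH2 and PMPCB. IMMP1L, a subunit of the inner membrane peptidase, averaged 100.1 ± 5.60 FPKM in the siMTFP1 libraries and 117 ± 9.32 FPKM in the NC libraries, without overlap. MTCH2, an insertase of the outer membrane, averaged 58.6 ± 4.20 FPKM in the siMTFP1 libraries and 67.2 ± 4.43 FPKM in the NC libraries. PMPCB, the catalytic subunit of the matrix processing peptidase, averaged 8.50 ± 0.320 FPKM in the siMTFP1 libraries and 10.9 ± 3.12 FPKM in the NC libraries. The adjusted p of these 6 genes ran from 0.784 for MTCH1 to 0.880 for PMPCB.

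Some levels rest on how reads were assigned, because the use of strand and the division of shared reads are not given in the sources used here. The spans of several import genes overlap another listed gene in RefSeq assembly ARS-UCD2.0, used for neighbours only. TIMM9 and TOMM20L overlap each other, and TIMM9 also overlaps KIAA0586, which averaged 9.48 ± 1.98 FPKM in the siMTFP1 libraries and 11.5 ± 1.64 FPKM in the NC libraries. Further overlaps were TIMM8B with NKAPD1, TOMM70 with LNP1, PAM16 with GLIS2 and TOMM40L with NR1I3. Neighbours of MTX1 are not reported here. Reads of related copies such as TIMM17A and TIMM17B may also have been split between them.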

How the data were processed

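Total RNA was isolated with TRIzol and made into messenger RNA libraries with a BGI Optimal Dual-mode kit, as the labels' protocols state. FPKM values with 2 decimals were deposited for the same 17325 genes in 6 libraries. Without giving roles or an order, the submitters' processing notes list the build ARS-UCD1.2 and, as tools, DESeq2 1.4.5, RSEM 1.3.1, HISAT2 2.2.1 and Bowtie2 2.3.4.3. Titles gave the groups.

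Genes with a mean of at least 1 FPKM (9730) were tested on log2(FPKM + 1) by two-sided moderated tests of limma 3.58.1 under R 4.3.3, with a mean-variance trend and no term but the group. Benjamini-Hochberg adjustment covered all tested genes, at 0.05. Differences on this scale understate those of low genes. The fit was tested on simulated data. Changes were placed there only in genes above the level of MTX1 and SAMM50, so the simulation does not cover such low genes. Alternatives were pseudocounts of 0.1 and 5, filters (none, 0.1, 5), 3 scalings, the replicate number as a block, a cumulus and granulosa marker covariate, array weights, robust eBayes and leaving out libraries.

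Members and lists were chosen with earlier results of these data known, so no p was computed over the list. All 32 import genes were named, and of the wider pathway the 3 with the smallest p per direction. All 32 gene IDs matched RefSeq (ARS-UCD2.0), used for names and neighbours. Python 3.11.15 with pandas 2.3.3 and matplotlib 3.10.9 was used for tables and plots.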

Additional observations from a re-analysis of the deposited data

How the results depend on the processing

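In all 19 alternatives 0 import genes passed an adjusted p of 0.05 by limma, the lowest adjusted p being 0.260. The outer minus inner difference stayed negative in every setting, from -0.14 without siMTFP1 3 to -0.020 with the wider gene sets, and moved by less than its spread between replicates. The count at an unadjusted limma p under 0.05 was 2 of 30 as reported, beside 6.53% of all tested genes. It was 1 of 26 with only genes of at least 5 FPKM (5.89% of all genes). The cumulus and granulosa marker covariate gave 1 (5.89%). Array weights gave 4, where 11.1% of all genes were called. Median-ratio scaling gave 3 (6.69% of all genes), where TIMM44 was added with a lower mean. With FPKM rescaled to equal sums the count stayed 2 (5.85% of all genes), with TIMM50 in place of TIMM13. When libraries were left out it ran from 1 (without siMTFP1 2) to 3, and the share of all genes from 3.45% to 7.85%. With the replicate number as a block the count was 1, without TIMM13, and 6.47% of all genes were called. The labels do not say whether the numbers pair the libraries. Same-numbered libraries deviated together at -0.16 to 0.067, and not every library correlated best with its own number. These values show no pairing but cannot exclude it, since each deviation was taken from a mean of few libraries. With libraries left out the count of import genes with a higher mean ran from 14 (both libraries numbered 3 left out) to 23. The median log2 difference of the import genes ran from -0.023 (the same setting) to 0.23 (without siMTFP1 1), with 0.017 without siMTFP1 3. Over all tested genes that median ran from -0.0093 (without NC 3) to 0.057 (without NC 1). Median-ratio scaling gave 19 import genes with a higher mean. The MTFP1 difference ran from -0.035 to 0.44 with libraries left out and was 0.96 with a pseudocount of 0.1 and 0.089 with 5.

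For 17 of the 30 tested genes the sign held in each alternative that kept the gene. Among these are the 4 genes whose groups did not overlap, for which leaving out libraries could not turn the sign. MTX2 turned to -0.023 with median-ratio scaling, -0.018 with quantile normalization and -0.079 with array weights. TIMM8A turned to -0.0010 with median-ratio scaling and -0.024 with array weights. TOMM6 turned to -0.026 with median-ratio scaling and -0.019 with the marker covariate. The remaining turns came with libraries left out, where log2 differences ran from -0.24 to 0.43 for CHCHD4, -0.071 to 0.26 for DNAJC19, -0.059 to 0.35 for GFER, -0.067 to 0.11 for MTX2, -0.097 to 0.32 for PAM16 and -0.24 to 0.42 for TIMM10B. They ran from -0.088 to 0.22 for TIMM17B, -0.27 to 0.15 for TIMM29, -0.064 to 0.085 for TIMM8A, -0.36 to 0.17 for TIMM9, -0.15 to 0.011 for TOMM34, -0.073 to 0.43 for TOMM5 and -0.093 to 0.14 for TOMM6. The cause of these turns was not tested. Leaving out both libraries numbered 3 was chosen after seeing the data. Depth is unknown and limits the genes near 1 FPKM, MTX1 and SAMM50 among them.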
